A study of Mus musculus with 16 samples.

Results

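Mouse hepatocytes cultured with pancreatic cancer cells lacking Phgdh, the first enzyme of serine synthesis, were compared with hepatocytes cultured with Phgdh wild-type cancer cells, a CXCR2 inhibitor (CXCR2i) being present in both cultures. The comparison was defined by the labels alone and took 7 of the 16 RNA-seq libraries of the series, 4 from co-cultures with Phgdh KO cancer cells and CXCR2i (KO+CXCR2i) and 3 from co-cultures with Phgdh WT cancer cells and CXCR2i (WT+CXCR2i). The remaining libraries were 3 from co-cultures with KO cells without inhibitor, 3 from co-cultures with WT cells without inhibitor, and 3 from hepatocytes alone. Inhibitor was never given to hepatocytes without cancer cells, and neither its name, dose, exposure time and vehicle nor the number of KO clones or the source of the hepatocytes is stated. The sample labels name mouse hepatocytes as the sequenced material, whereas the series' design text names the cancer cells, HY19636; the sample labels are followed here. Whether cancer cells shared the well or the lysate with the hepatocytes is not stated. The labels do not say that replicates came from separate cultures; p-values here measure only the spread between libraries, which may be technical.

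CXCR2 is the receptor, best known on neutrophils, for the chemokines CXCL1, CXCL2 and CXCL5, and its inhibitors block that signal. Hepatocytes in the liver secrete most plasma proteins, run the urea cycle, gluconeogenesis and ketone synthesis, and metabolise drugs with cytochrome P450 enzymes. These programmes are maintained by a network of transcription factors that includes HNF4, FOXA and ONECUT proteins, and they weaken when hepatocytes are kept in culture. Stress and growth signals act on another class of genes, the immediate early genes, among which ATF3, JUN, FOS and EGR1 are transcription factors induced without new protein synthesis.

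Expression was deposited as FPKM, fragments scaled to transcript length and to library size. Depth, recovered from the FPKM values, was 16100881 to 21266170 assigned fragments in KO+CXCR2i libraries and 15001948 to 17110357 assigned fragments in WT+CXCR2i libraries. The mitochondrial share was 1.88 to 2.09% of fragments in KO+CXCR2i libraries and 1.86 to 2.11% in WT+CXCR2i libraries. Among these 7 libraries the first principal component, with 29.5% of the variance, did not follow genotype: replicate 4 of KO+CXCR2i scored 7.1 against -8.93 to -7.16 for the other KO+CXCR2i libraries, and replicate 2 of WT+CXCR2i scored -5.38 against 11 and 11.6 for the other WT+CXCR2i libraries. Of the 50 genes weighing most on that component, 6 were protein coding. The second component, with 19.4% of the variance, separated the groups. Its scores ran from -10.9 to -1.58 in KO+CXCR2i libraries and from 3.3 to 13.3 in WT+CXCR2i libraries. Hepatocyte markers (14 genes) summed to 1099 to 1161 FPKM in KO+CXCR2i libraries and to 873 to 890 FPKM in WT+CXCR2i libraries, with 11 of them tested, 5 higher, 0 lower, and Cyp2e1 and Asgr1 below 0.3 FPKM on average in both groups. Pancreatic cancer epithelium markers (18 genes) summed to 788.5 to 820.3 FPKM in KO+CXCR2i libraries and to 820.5 to 875 FPKM in WT+CXCR2i libraries; of 9 tested only Sox9 was called, higher with KO cells, a call lost without any one library (adjusted p 0.059 to 0.157), and Agr2 and Tff1 were listed at 0. The same 18 genes summed to 434 to 447 FPKM in the libraries labelled hepatocytes alone, Msln, Krt19 and Sox9 included. If that label holds, they do not mark cancer cells by themselves in this series. In those libraries hepatocyte markers summed to 306.6 to 311.5 FPKM and cholangiocyte markers to 1245 to 1266 FPKM. The identity of the cells was not tested. Cholangiocyte markers ran from 573 to 620 FPKM in KO+CXCR2i libraries and from 574 to 585 FPKM in WT+CXCR2i libraries, macrophage markers, nearly all of it Cd14, from 106.5 to 109.4 FPKM in KO+CXCR2i libraries and from 103.3 to 104.3 FPKM in WT+CXCR2i libraries, with 8 of 12 at 0. Stellate, endothelial, neutrophil and acinar or endocrine pancreas markers stayed under 2 FPKM in sum in every library of both groups. In such bulk libraries a change in the number of cells of a type and a change in RNA per cell cannot be told apart.

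The targeted gene does not check the labels here, because the knockout was in the cancer cells and the sample labels name hepatocytes as the sequenced material. In hepatocytes alone the 3 serine synthesis genes, Phgdh, Psat1 and Psph, summed to 364 to 371 FPKM. Phgdh was at 157, 157, 149.6 and 145.8 FPKM in KO+CXCR2i libraries and at 157.6, 154.8 and 160.2 FPKM in WT+CXCR2i libraries, a difference of -0.05 ± 0.03 on the log2(FPKM + 1) scale (SE; limma adjusted p = 0.66). Psat1 and Psph, the enzymes of the remaining steps of serine synthesis, differed by -0.02 and -0.01 (adjusted p = 0.92 and 0.97). The interconverters of serine and glycine, cytosolic Shmt1 and mitochondrial Shmt2, differed by 0.13 and -0.09 (adjusted p = 0.41 and 0.67). Of 27 tested enzymes of serine, glycine and one-carbon metabolism 1 was called, where 2.31% of all tested genes were. It was Ahcy, which cleaves S-adenosylhomocysteine. Ahcy averaged 182 ± 9.8 FPKM in KO+CXCR2i libraries and 149 ± 2.1 FPKM in WT+CXCR2i libraries (SD, n = 4 and 3), a rise of 0.29 ± 0.04 (adjusted p = 0.0022). The receptor gene Cxcr2 was listed at 0 in all 4 KO+CXCR2i libraries and in 2 of 3 WT+CXCR2i libraries, the third holding 2 fragments, and Cxcr1 was listed at 0 in all 7.

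Across 11395 tested genes (mean of at least 1 FPKM over the series), 263 genes, or 2.31%, differed between KO+CXCR2i and WT+CXCR2i co-cultures at a limma adjusted p of at most 0.05. Of these 189 were higher with KO cells (1.66% of tested genes) and 74 lower (0.649%). Counts of called list members given below are to be read against these shares. The differences were small on the log2(FPKM + 1) scale, with a median size of 0.30 and a median over all tested genes of 0.00. On that scale, that is in FPKM + 1, 10 genes rose by at least 1.5-fold and 3 fell by as much. Ratios of FPKM itself are larger, most of all for low genes, so more genes pass 1.5-fold in FPKM. Libraries did not overlap in 262 of the 263 called genes, where 14.6% of all tested genes showed no overlap (8.42% with KO+CXCR2i higher, 6.18% lower). Leaving out 1 library at a time left 123 to 221 calls. The count fell by more than 1.5 times without WT+CXCR2i replicate 1 (123), 2 (142) or 3 (125) and without KO+CXCR2i replicate 1 (156), 2 (166) or 3 (172). Of 99 called genes named here or belonging to the gene lists used here, 46 passed without each of the 7 libraries in turn; calls that did not are marked where they are named.

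**Figure D1:**
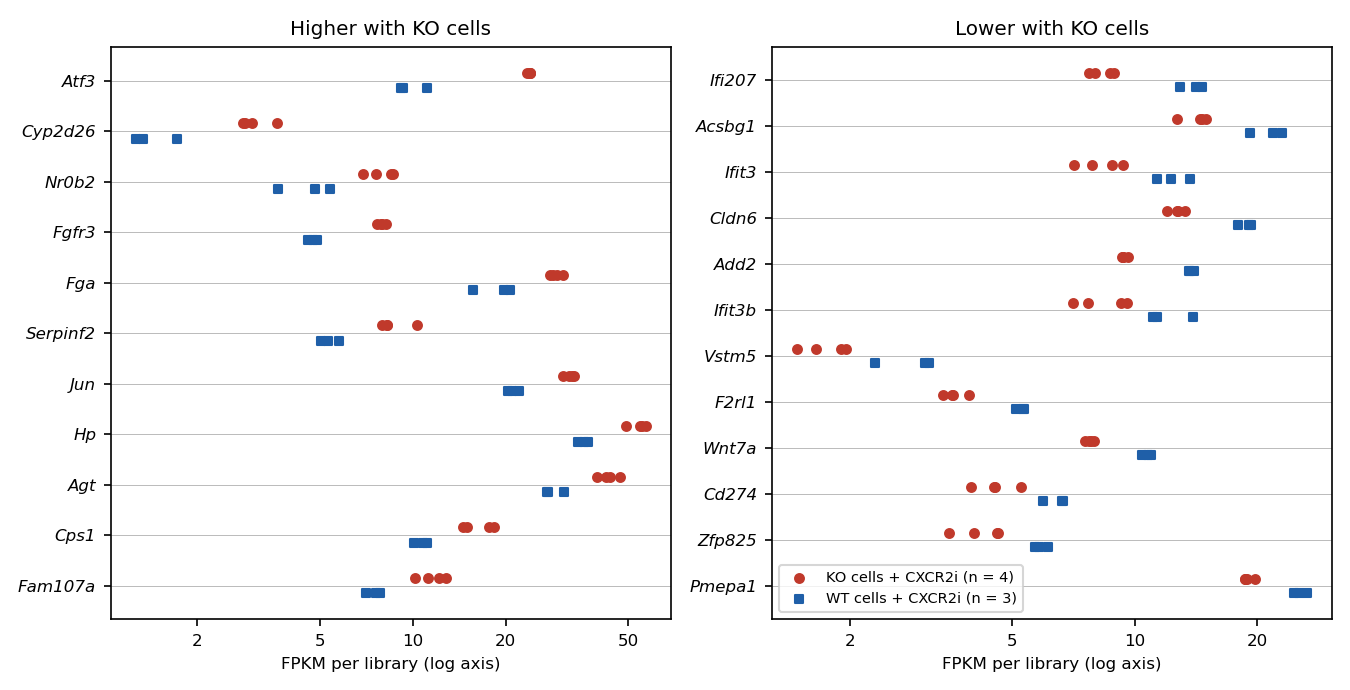
FPKM per library, on a log axis, of 11 of the 12 protein-coding genes with the largest rise (left) and the 12 with the largest fall (right) among called genes whose groups do not overlap; circles are the 4 KO+CXCR2i libraries and squares the 3 WT+CXCR2i libraries. Atf3 shows the widest separation, 23.5 to 24.1 FPKM in KO+CXCR2i libraries against 9.17 to 11.1 FPKM in WT+CXCR2i libraries.

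Immediate early genes gave the strongest single result. Of 23 tested members, 7 rose and 0 fell, against 1.66% and 0.649% of all tested genes. The median difference was 0.14 against 0.00 over all genes. Atf3, a stress-induced transcription factor of the ATF and AP-1 family (chromosome 1, 191170296 to 191218039, GRCm38), stood at 24.0, 24.1, 24.0 and 23.5 FPKM in KO+CXCR2i libraries, against 11.1, 9.33 and 9.17 FPKM in WT+CXCR2i libraries. The 4 KO libraries lay within 1 FPKM of each other and each was above 2 times the mean of the WT libraries, 9.87 ± 1.1 FPKM (SD, n = 3). The difference was 1.2 ± 0.06 (adjusted p = 6.5e-08), and it passed under every setting tried. Jun, the AP-1 subunit, had 33.3, 32.2, 32.9 and 30.7 FPKM in KO+CXCR2i libraries and 20.3, 22.1 and 20.9 FPKM in WT+CXCR2i libraries (0.59 ± 0.05, adjusted p = 4.1e-05). Egr1, a zinc-finger factor induced by growth factors, had 54.8, 54.5, 55.5 and 55 FPKM in KO+CXCR2i libraries against 44.9, 43 and 46 FPKM in WT+CXCR2i libraries (0.29 ± 0.03, adjusted p = 0.00023). Btg2, a gene that restrains cell division, had 20.9, 19.1, 22.8 and 20 FPKM in KO+CXCR2i libraries and 14.9, 14.7 and 15 FPKM in WT+CXCR2i libraries (0.45 ± 0.05, adjusted p = 0.00059). All 4 genes separated the groups without overlap and kept their calls without any 1 library. Fos (0.39), Zfp36, which promotes decay of cytokine mRNAs (0.39), and Csrnp1 (0.35) also rose, but these calls depended on single libraries: Fos was lost without KO+CXCR2i replicate 3 or any WT+CXCR2i replicate (adjusted p up to 0.11), Zfp36 without KO+CXCR2i replicate 1, 2 or 3 or WT+CXCR2i replicate 1 or 3 (up to 0.12), and Csrnp1 without WT+CXCR2i replicate 3 (0.055). Junb (0.09), Myc (0.07), Ier2 (0.05) and Fosl1 (0.04) did not pass.

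The rise of Atf3 and Jun is the largest of this class, and both proteins bind sites related to the cAMP response element, so their own promoters are shown. The stretches are the 250 bases before the RefSeq start nearest to the gene's start in the deposited table (GRCm38.p6, minus strand for both, the start of Atf3 lying within the span of the deposited gene model, chr1:191183334-191183583 for Atf3 and chr4:95052223-95052472 for Jun), 5′ to 3′, with matches to TNACNTCA on either strand in capitals.
Atf3: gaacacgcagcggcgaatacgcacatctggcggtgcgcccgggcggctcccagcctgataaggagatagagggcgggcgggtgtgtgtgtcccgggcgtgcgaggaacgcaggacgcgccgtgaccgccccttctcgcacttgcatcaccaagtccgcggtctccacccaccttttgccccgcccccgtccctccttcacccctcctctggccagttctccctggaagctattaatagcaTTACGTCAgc
Jun: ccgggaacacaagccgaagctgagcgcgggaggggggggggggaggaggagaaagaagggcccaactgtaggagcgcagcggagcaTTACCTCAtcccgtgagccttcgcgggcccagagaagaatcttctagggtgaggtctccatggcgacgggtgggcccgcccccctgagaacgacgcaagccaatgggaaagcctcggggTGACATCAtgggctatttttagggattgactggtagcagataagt
The Atf3 match begins 10 bases before the start and those of Jun 164 and 45 bases before it. The 8-letter pattern was present in 15% of the 140 promoters available for the 189 higher genes, in 13.8% of 58 promoters of lower genes, and in 11% of 8317 promoters of tested genes. Its share thus differed little between these sets, and a match describes letters, not binding.

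The list of MAPK feedback genes holds dampers of growth-factor signalling and other genes such as Etv4 and Btc. Its calls were mixed: of 21 tested, 3 rose and 2 fell. Among all tested genes 1.66% rose and 0.649% fell. Dusp1, a MAPK phosphatase, had 48.5, 46.8, 51 and 50.7 FPKM in KO+CXCR2i libraries, above the 33.6, 38.1 and 36.1 FPKM of WT+CXCR2i libraries (0.45 ± 0.06, adjusted p = 0.0014). Dusp6 and Errfi1 rose by 0.20 and 0.19 (adjusted p = 0.0064 and 0.0041). The ETS factor gene Etv4 fell by 0.35 (adjusted p = 0.0033), and Btc, encoding the EGF-family ligand betacellulin, by 0.37 (adjusted p = 0.013), the call of Btc being lost without WT+CXCR2i replicate 1 (0.072) or 3 (0.058). Among YAP and TEAD targets (20 tested, 1 higher, 1 lower) Cyr61, a secreted matricellular protein, rose by 0.32 (adjusted p = 0.0033).

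Secreted hepatocyte proteins held the most calls of any list. Of 29 genes on the list 22 were tested; 9 rose and 0 fell, and the median difference was 0.36. Alb, the main plasma protein (chromosome 5, 90460897 to 90476602), had 475, 454, 455 and 460.2 FPKM in KO+CXCR2i libraries and 343, 323 and 338 FPKM in WT+CXCR2i libraries (0.46 ± 0.05, adjusted p = 0.00038). Fga, the fibrinogen alpha chain, had 30.6, 28.5, 29.5 and 28 FPKM in KO+CXCR2i libraries against 20.6, 19.8 and 15.7 FPKM in WT+CXCR2i libraries (0.62 ± 0.08, adjusted p = 0.00094). Agt, angiotensinogen, had 47, 43.6, 42.2 and 39.7 FPKM in KO+CXCR2i libraries and 27.5, 30.9 and 27.3 FPKM in WT+CXCR2i libraries (0.58 ± 0.07, adjusted p = 0.0006). In each of these every KO+CXCR2i library was above every WT+CXCR2i library. Vtn, vitronectin, rose by 0.54, Fgb, the fibrinogen beta chain, by 0.49, Apoh by 0.46, the thyroxine and retinol carrier Ttr by 0.40, and the haem carrier Hpx by 0.29, all kept without each library in turn. Ahsg, fetuin-A, rose by 0.37, a call lost without KO+CXCR2i replicate 1 or 2 or any WT+CXCR2i replicate (adjusted p up to 0.095). Not every abundant member moved: Trf, transferrin, was at 71 FPKM in KO+CXCR2i libraries and 71.1 FPKM in WT+CXCR2i libraries, Gc differed by 0.12, Rbp4 by 0.15, and Apoe by 0.41 with an adjusted p of 0.18. Left-out libraries moved the count of this list between 8 and 9. The summed hepatocyte markers given above, several of which are on this list, moved in the same direction, and their part in this and the following hepatocyte groups was not tested.

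Acute phase genes, the plasma proteins that inflammation raises, showed 7 higher and 0 lower of 14 tested (median 0.23). C3, the central complement protein, averaged 332 FPKM in KO+CXCR2i libraries and 265 FPKM in WT+CXCR2i libraries (0.32 ± 0.03, adjusted p = 6.05e-05). Lbp, which carries lipopolysaccharide, rose by 0.23 (adjusted p = 0.0017) and C4b by 0.23 (adjusted p = 0.0054). Hp, haptoglobin, had 56.9, 55.6, 54.7 and 49.1 FPKM in KO+CXCR2i libraries against 34.3, 35.9 and 36.9 FPKM in WT+CXCR2i libraries (0.58 ± 0.12, adjusted p = 0.015), a wide gap whose call was nevertheless lost without KO+CXCR2i replicate 1 (0.051) or any WT+CXCR2i replicate (0.053 to 0.073). Serpinf2, the plasmin inhibitor alpha-2-antiplasmin and not on the list, had 8.24, 8.28, 10.3 and 7.95 FPKM in KO+CXCR2i libraries and 5.04, 5.32 and 5.77 FPKM in WT+CXCR2i libraries (0.60 ± 0.14, adjusted p = 0.044). Cp (0.27), Itih3 (0.39) and Serpinf2 lost their calls without any one of the 7 libraries (adjusted p 0.055 to 0.18), and Itih4 (0.36) without WT+CXCR2i replicate 1 or 2 (0.075 and 0.073). The count of acute phase genes ran from 3 to 5 when libraries were left out and was 4 with a pseudocount of 0.1 FPKM.

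**Figure D2:**
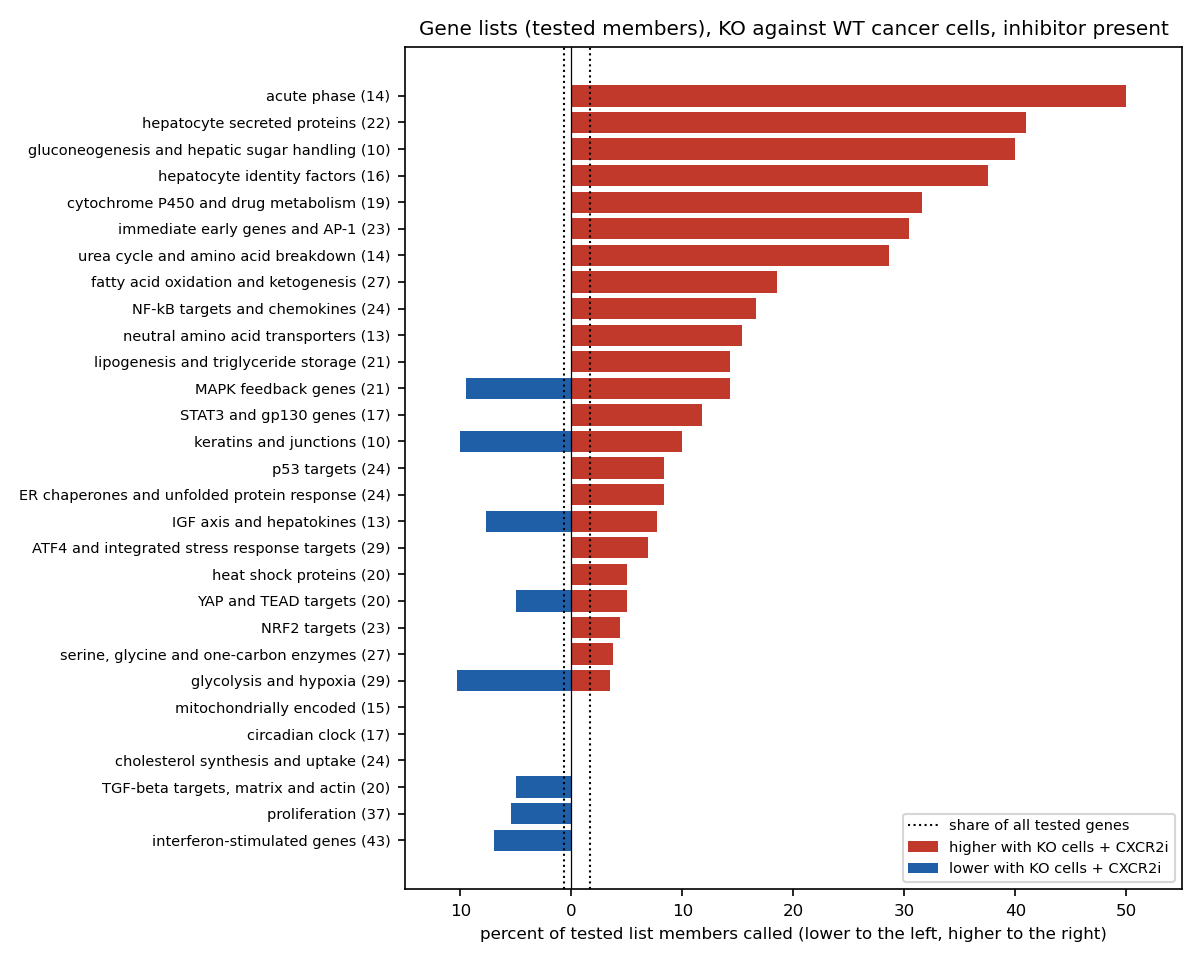
Percent of the tested members of each gene list that were called higher (bars to the right) or lower (bars to the left) in KO+CXCR2i against WT+CXCR2i co-cultures, for lists with at least 10 tested members (number in brackets); dotted lines mark the share of all tested genes, 1.66% higher and 0.649% lower. Lists of cell type markers are not drawn; among the lists drawn, acute phase and secreted hepatocyte proteins have the longest bars, with no member lower.

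Among the transcription factors of hepatocyte identity 6 of 16 tested rose and 0 fell (median 0.22). Nr1h4, the bile acid receptor FXR, averaged 64.1 FPKM in KO+CXCR2i libraries and 52.6 FPKM in WT+CXCR2i libraries (0.28 ± 0.04, adjusted p = 0.0022), the only call of the 6 kept without each library. Onecut1, HNF6, had 6.75, 6.95, 7.13 and 7.55 FPKM in KO+CXCR2i libraries against 4.47, 5.07 and 4.76 FPKM in WT+CXCR2i libraries (0.49 ± 0.09, adjusted p = 0.011), lost without WT+CXCR2i replicate 1 (0.062). Foxa3 had 10.7, 10.4, 10.7 and 7.72 FPKM in KO+CXCR2i libraries and 4.47, 7.73 and 6.65 FPKM in WT+CXCR2i libraries (0.59 ± 0.14, adjusted p = 0.035). Here the groups overlapped, since KO+CXCR2i replicate 4 lay just below WT+CXCR2i replicate 2, and the call was lost without KO+CXCR2i replicate 1, 2 or 3 or WT+CXCR2i replicate 1 or 3 (0.083 to 0.14). Nr5a2 (0.35) was lost without WT+CXCR2i replicate 1 or 3 (adjusted p up to 0.077), Prox1 (0.28) without KO+CXCR2i replicate 2 or 3 or WT+CXCR2i replicate 1 or 2 (up to 0.084), and Nr1i2, the pregnane X receptor (0.38), without KO+CXCR2i replicate 1, 2 or 4 or WT+CXCR2i replicate 2 or 3 (up to 0.19). The central factors Hnf4a (0.09), Foxa2 (0.03) and Gata4 (0.00) did not pass. Nr0b2, SHP, a repressor of bile acid synthesis that FXR induces, had 6.91, 8.63, 8.51 and 7.61 FPKM in KO+CXCR2i libraries and 3.67, 5.41 and 4.81 FPKM in WT+CXCR2i libraries (0.67 ± 0.12, adjusted p = 0.0085), lost without WT+CXCR2i replicate 1 (0.052).

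Lists of hepatocyte metabolism held calls in the same direction. Of 27 tested genes of fatty acid oxidation and ketone synthesis 5 rose and 0 fell (median 0.16). Cd36, a fatty acid transporter, had 3.81, 4.09, 3.41 and 3.52 FPKM in KO+CXCR2i libraries against 2.69, 1.94 and 2.4 FPKM in WT+CXCR2i libraries (0.50 ± 0.08, adjusted p = 0.004), and Acot1 rose by 0.35 (adjusted p = 0.00086). Both separated the groups and kept their calls without each library, whereas Acox2, a peroxisomal oxidase (0.24), was lost without any one library (adjusted p up to 0.15). Gluconeogenesis and hepatic sugar handling had 4 of 10 tested genes higher and 0 lower (median 0.21). The liver glucose transporter Slc2a2 had 40, 38.7, 38.8 and 40.6 FPKM in KO+CXCR2i libraries and 27.6, 26.6 and 30.4 FPKM in WT+CXCR2i libraries (0.47 ± 0.06, adjusted p = 0.0006). Tat, which degrades tyrosine, rose by 0.44, a call lost without WT+CXCR2i replicate 3 (0.074).

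The urea cycle and amino acid breakdown list held 4 higher and 0 lower of 14 tested (median 0.04). Cps1, which catalyses the entry step of the urea cycle, had 17.7, 18.3, 14.6 and 15 FPKM in KO+CXCR2i libraries and 10.1, 10.8 and 11.1 FPKM in WT+CXCR2i libraries (0.57 ± 0.08, adjusted p = 0.0015). Glul, glutamine synthetase, rose by 0.32, a call lost without WT+CXCR2i replicate 1 (adjusted p = 0.057). The urea cycle enzyme Ass1 differed by -0.13 and did not pass, so the list did not move as a whole. Of 19 tested cytochrome P450 and drug metabolism genes 6 rose and 0 fell (median 0.19). Cyp2d26, outside that list, had 3.62, 2.85, 3.02 and 2.82 FPKM in KO+CXCR2i libraries and 1.27, 1.73 and 1.34 FPKM in WT+CXCR2i libraries (0.74 ± 0.10, adjusted p = 0.0012), with the reservation that it belongs to a family of similar genes among which reads may be shared. Cyp3a11, the main drug-oxidising enzyme of its family in mouse liver, had 3.88, 3.63, 3.65 and 3.09 FPKM in KO+CXCR2i libraries against 2.18, 2.33 and 2.3 FPKM in WT+CXCR2i libraries (0.48 ± 0.08, adjusted p = 0.004). Cyp1a2 (0.52) was lost without any one library (adjusted p 0.056 to 0.22) and Cyp2j5 (0.55) without WT+CXCR2i replicate 2 (0.054). All 4 of these P450 transcripts stayed below 5 FPKM in the 7 libraries, and the count of the list ran from 2 to 4 when libraries were left out and was 1 with a pseudocount of 0.1 FPKM.

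Other groups had small median differences. Of 24 tested NF-kB targets and chemokines 4 rose and 0 fell, against 1.66% and 0.649% of all tested genes. Their median was 0.07, and from 1 to 4 rose when libraries were left out. Nfkbie, an inhibitor of NF-kB, was at 11, 10.1, 11.1 and 10.6 FPKM in KO+CXCR2i libraries and 7.55, 8.47 and 8 FPKM in WT+CXCR2i libraries (0.38 ± 0.06, adjusted p = 0.004). Among the CXCR2 ligands Cxcl1 had 11.1, 9.78, 13 and 13.5 FPKM in KO+CXCR2i libraries against 8.49, 8.91 and 8.08 FPKM in WT+CXCR2i libraries (0.43 ± 0.10, adjusted p = 0.03), a call lost without any library other than KO+CXCR2i replicate 2 (adjusted p 0.055 to 0.14). Cxcl2 and Cxcl5 did not pass. Herpud1, of the ER-associated degradation machinery, rose by 0.31 (adjusted p = 0.0017), and it was 1 of 2 genes called among 24 of the unfolded protein response. ATF4 targets had 2 of 29 tested genes higher, Atf3 and Gpt2, the second lost without KO+CXCR2i replicate 1 or 2 or any WT+CXCR2i replicate (adjusted p up to 0.078). Gstm1, a glutathione transferase, rose by 0.29 (adjusted p = 0.0081), 1 of 23 NRF2 targets. None of 24 cholesterol synthesis genes, 17 clock genes or 15 mitochondrially encoded genes passed.

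Genes lower with KO cells were fewer. Ifi207, of the interferon-inducible p200 family, had 7.73, 7.99, 8.89 and 8.69 FPKM in KO+CXCR2i libraries and 14.1, 12.9 and 14.6 FPKM in WT+CXCR2i libraries (-0.68 ± 0.10, adjusted p = 0.0032). Acsbg1, an acyl-CoA synthetase, had 14.7, 15, 14.4 and 12.7 FPKM in KO+CXCR2i libraries against 19.2, 21.9 and 23 FPKM in WT+CXCR2i libraries (-0.56 ± 0.06, adjusted p = 0.00019). Add2, the membrane-skeleton protein beta-adducin, had 9.36, 9.33, 9.66 and 9.34 FPKM in KO+CXCR2i libraries and 13.9, 13.6 and 13.7 FPKM in WT+CXCR2i libraries (-0.50 ± 0.03, adjusted p = 5.9e-06). The SD of Add2 was 0.157 FPKM in KO+CXCR2i libraries and 0.171 FPKM in WT+CXCR2i libraries (n = 4 and 3). Its call, like that of Atf3, passed under every setting tried. F2rl1, the protease-activated receptor PAR2, fell by 0.44 (adjusted p = 0.00019), Wnt7a, a Wnt ligand, by 0.42 (adjusted p = 0.0015) and Pmepa1, a TGF-beta-induced inhibitor of that pathway, by 0.40 (adjusted p = 0.00012). Cd274, PD-L1, had 4.53, 5.25, 3.96 and 4.51 FPKM in KO+CXCR2i libraries and 6.67, 5.97 and 6.62 FPKM in WT+CXCR2i libraries (-0.42 ± 0.08, adjusted p = 0.015), lost without WT+CXCR2i replicate 1 (0.08) or 3 (0.082). The claudin gene Cldn6 fell by 0.53, a call lost without any one library (adjusted p up to 0.12), Vstm5 by 0.48, lost without any library other than WT+CXCR2i replicate 3 (up to 0.21), and Zfp825 by 0.42, lost without KO+CXCR2i replicate 1 or any WT+CXCR2i replicate (up to 0.10).

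Interferon-stimulated genes as a list showed 3 lower and 0 higher of 43 tested, against 0.649% and 1.66% of all tested genes. Their median was -0.08, and 9 of 43 differences lay above 0. Ifit3, an antiviral effector, had 7.86, 9.38, 8.78 and 7.11 FPKM in KO+CXCR2i libraries and 12.3, 13.7 and 11.3 FPKM in WT+CXCR2i libraries (-0.53 ± 0.09, adjusted p = 0.0075), without overlap and kept without each library. Its neighbour Ifit3b, a near copy with which reads may be shared, fell by 0.48 and Rsad2, viperin, by 0.39. Ifit3b was lost without any library other than KO+CXCR2i replicate 2 (adjusted p up to 0.17) and Rsad2 without KO+CXCR2i replicate 1 or any WT+CXCR2i replicate (0.085 to 0.12). The most abundant members did not pass: Bst2 differed by -0.02, Isg15 by 0.03 and Ifit1 by -0.17. None of the 43 was called with a pseudocount of 0.1 FPKM, nor when only genes averaging at least 5 FPKM over the series were tested, a filter that Ifit3 does not pass.

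For 2 of the 3 fallen genes of this class the promoters are shown, since interferon-induced factors bind the interferon-stimulated response element. They are the 250 bases before the RefSeq start (GRCm38.p6; chr19:34583279-34583528, plus strand, for Ifit3; chr12:26456453-26456702, minus strand, for Rsad2), with capitals on matches to GAAANNGAA on either strand.
Ifit3: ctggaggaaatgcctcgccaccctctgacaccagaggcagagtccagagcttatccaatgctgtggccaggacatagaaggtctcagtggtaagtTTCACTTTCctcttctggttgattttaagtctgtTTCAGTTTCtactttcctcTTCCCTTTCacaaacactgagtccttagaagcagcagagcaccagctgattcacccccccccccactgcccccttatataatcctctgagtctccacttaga
Rsad2: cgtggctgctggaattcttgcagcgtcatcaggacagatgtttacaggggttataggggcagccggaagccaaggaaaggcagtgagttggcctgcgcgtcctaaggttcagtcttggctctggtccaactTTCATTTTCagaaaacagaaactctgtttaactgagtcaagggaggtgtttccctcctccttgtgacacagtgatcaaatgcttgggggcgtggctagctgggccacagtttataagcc
Ifit3 held matches beginning 155, 121 and 102 bases before the start and Rsad2 1 match beginning 119 bases before it. The pattern was present in 9 of 58 promoters of genes called lower (15.5%), in 7 of 140 promoters of genes called higher (5%) and in 6.06% of promoters of tested genes. These letters were chosen after the results, and the lower set includes Ifit3 and Rsad2 themselves, so its share is not a test. A match describes letters, not binding.

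Proliferation genes, 37 tested, showed 0 higher and 2 lower, against 1.66% and 0.649% of all tested genes, and 35 were not called. Their median was -0.07, against 0.00 over all tested genes, with 2 of 37 differences above 0. Ccnd1, cyclin D1, averaged 143 FPKM in KO+CXCR2i libraries and 161 FPKM in WT+CXCR2i libraries (-0.17 ± 0.03, adjusted p = 0.0063). Pcna, the replication clamp, averaged 33 FPKM in KO+CXCR2i libraries and 38 FPKM in WT+CXCR2i libraries (-0.20, adjusted p = 0.028), lost without any library other than KO+CXCR2i replicate 3 (adjusted p up to 0.12). Of 29 tested glycolysis and hypoxia genes 1 rose and 3 fell. The glycolytic enzymes Pkm (-0.17), Pgk1 (-0.15) and Ldha (-0.15) were lower by little, Pkm and Pgk1 being lost without any one library and Ldha without any library other than KO+CXCR2i replicate 3 (adjusted p up to 0.15), while Pfkfb3, which raises the activator of phosphofructokinase, was higher by 0.24 (adjusted p = 0.0041).

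The same genotype comparison without inhibitor used other libraries, 3 from co-cultures with KO cells and 3 from co-cultures with WT cells. It called 341 genes (2.99% of tested), 188 higher (1.65%) and 153 lower (1.34%). Called in the same direction in both comparisons were 66 genes, 45 higher and 21 lower, which is 25.1% of the calls with inhibitor and 19.4% of those without. Opposite directions were called for 7 genes, 5 higher with inhibitor and lower without, 2 the reverse. Among the 189 genes higher with inhibitor 76.7% had a difference above 0 without it, against 52.7% of all tested genes, and among the 74 lower 78.4% were below 0, against 47.3%. Across all tested genes the 2 sets of differences correlated with Pearson's r = 0.134, which is across genes and not a test. Agt, Slc2a2, C3 and F2rl1 are examples called in the same direction in both. Agt averaged 11.9 FPKM with KO cells and 5.99 FPKM with WT cells without inhibitor (0.88, adjusted p = 1.6e-05). Sizes could differ: for C3 the rise was smaller with inhibitor, and the difference between the 2 effects (-0.21) was itself called. That call was lost without 12 of 13 libraries.

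**Figure D3:**
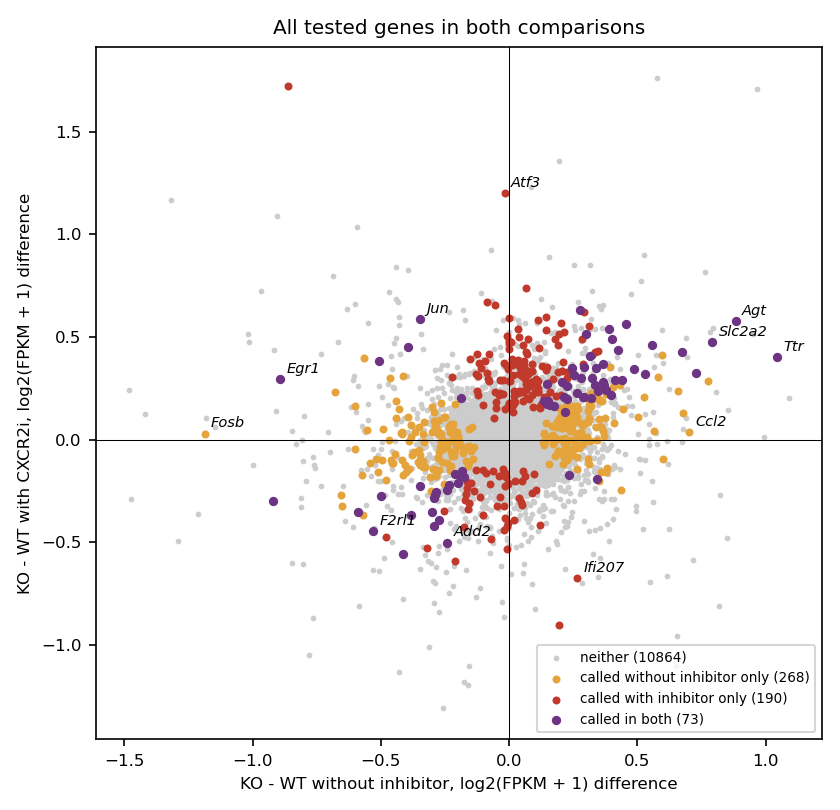
Difference between KO and WT co-cultures on the log2(FPKM + 1) scale for every tested gene, with CXCR2i (vertical axis) and without it (horizontal axis), coloured by where the gene was called. Agt, Slc2a2 and Ttr lie in the upper right, Egr1 and Jun in the upper left, and Atf3 on the vertical axis, 1.2 with inhibitor and -0.02 without.

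The difference between the 2 genotype effects, tested as an interaction, was called for 93 genes (0.816%), 61 with a higher (0.535%) and 32 with a lower effect under inhibitor (0.281%). Of the 263 genes called with inhibitor 35 were among them, and for 228 the interaction was not called. Immediate early genes held 9 of the 61: with inhibitor 7 of the 23 tested were called higher and 0 lower, without it 0 were called higher and 9 lower. Egr1 averaged 55 ± 0.42 FPKM in KO+CXCR2i and 44.6 ± 1.5 FPKM in WT+CXCR2i libraries, but 38.3 ± 1.4 FPKM with KO cells and 72 ± 0.76 FPKM with WT cells without inhibitor (SD, n = 4, 3, 3 and 3; interaction 1.19, adjusted p = 4.9e-09). Jun averaged 14.6 ± 0.46 FPKM with KO cells and 18.8 ± 1.5 FPKM with WT cells without inhibitor (interaction 0.93, adjusted p = 1.5e-05), and Btg2 averaged 11.9 ± 0.098 FPKM with KO cells and 15.9 ± 1 FPKM with WT cells without inhibitor (interaction 0.85, adjusted p = 0.00011). For these 3 genes the sign of the genotype difference turned. Without inhibitor the call of Egr1 was kept under every setting tried. Those of Jun and Btg2 were lost when only the 6 libraries compared were fitted, past 1.2-fold and with the replicate block. With inhibitor, Egr1 and Btg2 lost their calls past 1.2-fold and with the block. Atf3 without inhibitor averaged 32.8 ± 1.1 FPKM with KO cells, 33.3 ± 1.9 FPKM with WT cells and 31.5 ± 1.3 FPKM in hepatocytes alone, so WT+CXCR2i libraries, at 9.87 FPKM, were the lowest of the 5 groups and KO+CXCR2i libraries, at 23.9 FPKM, lay between them and the rest (interaction 1.22, adjusted p = 4.3e-06). The interactions of Egr1, Jun, Btg2 and Atf3 passed without each library in turn. The interactions of Nfkbie (0.49) and Csrnp1 (0.46) were called with adjusted p = 0.022 and 0.0395, the first being lost without 6 of 13 libraries (up to 0.073) and the second without 12 of 13 (up to 0.101).

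**Figure D4:**
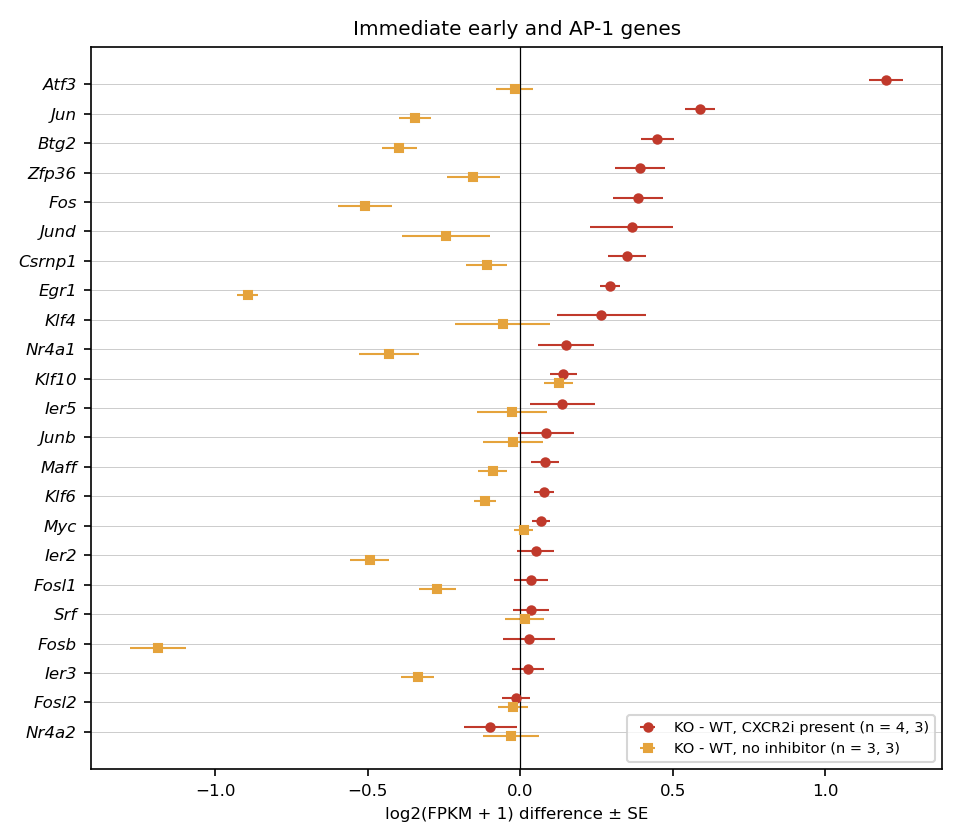
Difference between KO and WT co-cultures, on the log2(FPKM + 1) scale with its standard error, for the 23 tested immediate early and AP-1 genes, with CXCR2i (circles, n = 4 and 3) and without (squares, n = 3 and 3). With inhibitor 21 of the 23 lie above 0, whereas Egr1, Fosb, Fos, Ier2, Nr4a1, Btg2, Jun, Ier3 and Fosl1 were called lower without it.

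Levels set these comparisons in context. Alb averaged 461 ± 9.6 FPKM in KO+CXCR2i and 335 ± 10 FPKM in WT+CXCR2i libraries, but 27.8 ± 0.67 FPKM with KO cells, 24.3 ± 2.6 FPKM with WT cells and 57.1 ± 1.8 FPKM in hepatocytes alone. The libraries with inhibitor thus stood far above the rest for this marker. The labels do not say whether they were prepared together with the others, so inhibitor and preparation cannot be told apart in the interactions. The summed hepatocyte markers ran from 197 to 212 FPKM with KO cells and from 166 to 190 FPKM with WT cells without inhibitor. Without inhibitor Cyp2d26 averaged 0.181 FPKM with KO cells and 0.124 FPKM with WT cells, and Ifit3 0.203 FPKM with KO cells and 0.216 FPKM with WT cells. At such levels the log2(FPKM + 1) scale leaves little room for a difference, so the interaction called for Cyp2d26 (0.67, adjusted p = 0.047) compares a measurable difference with one between groups in which the gene was scarcely detected. That interaction was lost without 11 of 13 libraries (limma adjusted p up to 0.13). Ttr moved the other way: it averaged 50.4 ± 3 FPKM with KO cells and 23.9 ± 1.1 FPKM with WT cells without inhibitor, a difference of 1.04 that exceeded the 0.40 seen with inhibitor (interaction -0.64, adjusted p = 0.002). Ccl2, a monocyte attractant, averaged 299 ± 9.8 FPKM in KO+CXCR2i and 291 ± 2.8 FPKM in WT+CXCR2i libraries, a difference of 0.04 (adjusted p = 0.84), against 16.1 ± 0.62 FPKM with KO cells and 9.56 ± 0.72 FPKM with WT cells without inhibitor (interaction -0.66, adjusted p = 0.00012).

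**Figure D5:**
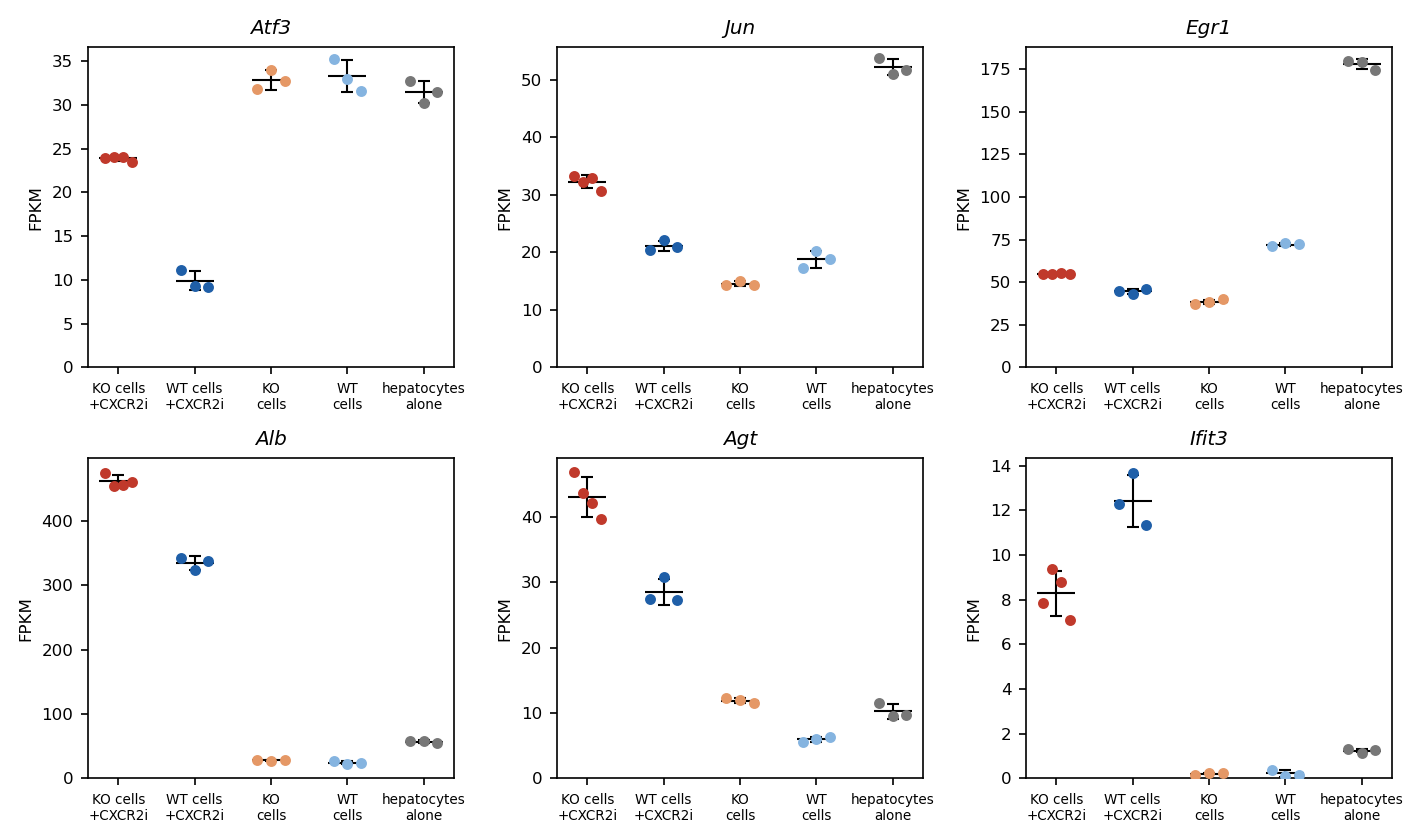
FPKM of 6 genes in every library of the 5 groups (points), with the group mean and SD (bars); n = 4 for KO+CXCR2i and 3 for the other groups. Alb, Agt and Ifit3 are higher in both inhibitor groups than elsewhere, and Atf3 is lowest in WT+CXCR2i libraries, 9.17 to 11.1 FPKM.

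Of the 37 proliferation genes tested, only Ccnd1 was called in both comparisons, lower in each (-0.21 without inhibitor, adjusted p = 0.002). In all, 6 were called higher and 1 lower with KO cells without inhibitor, and 0 higher and 2 lower with it, and 4 interactions were called, all lower. Ccnb1, cyclin B1, averaged 6.56 ± 0.8 FPKM in KO+CXCR2i and 7.92 ± 0.12 FPKM in WT+CXCR2i libraries, and 1.51 ± 0.37 FPKM with KO cells and 0.841 ± 0.055 FPKM with WT cells without inhibitor (interaction -0.68, adjusted p = 0.047). Its interaction was lost without 11 of 13 libraries (adjusted p up to 0.12). One further gene passed a difference of 1 on the log2 scale, Mir7669, named here because only it and Atf3 did so; it is a 58-base annotated transcript with 4, 5, 6 and 3 fragments in KO+CXCR2i libraries and 0, 2 and 0 in WT+CXCR2i libraries, so its value of 1.72 rests on a handful of fragments.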

How the data were processed

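RNA of mouse hepatocytes was sequenced in 16 libraries. Per the labels, RNA was extracted with an RNeasy kit and libraries followed the sequencing provider's protocol, and the submitters' processing notes name HISAT2 and the builds GRCm38 and mm10. The counting tool, annotation, strand setting and version numbers are not stated. The authors deposited 1 table of FPKM per gene for all 16 libraries (54532 genes, with names, coordinates and gene lengths). FPKM multiplied by gene length gave whole fragments, within 0.1, for over 99.9% of values in every library, which gave the depth of each and the fragments used in 1 alternative. No 2 libraries of a group agreed within sampling noise.

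Groups came from the sample titles. Values were analysed as log2(FPKM + 1) for the 11395 genes with a mean of at least 1 FPKM over the 16 libraries. Fold changes on this scale understate those of low genes. The test was limma 3.58.1 (R 4.3.3) with 1 mean per group over all 16 libraries, moderated variance with a trend, 11 residual degrees of freedom, and Benjamini-Hochberg adjustment over all tested genes at 0.05. Contrasts were KO against WT with inhibitor, the same without inhibitor, and their difference. Alternatives changed the pseudocount, low-value filter, scaling, libraries, weights, fold threshold and replicate block, or left out 1 library. A count model was not used as the main test because FPKM are not counts; voom on recovered fragments served as an alternative. The code was tested on simulated data.

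Named genes were the serine enzymes, CXCR receptors and Alb, the 12 largest protein-coding changes each way without overlap, the 3 most changed called members of each list, 10 each way without inhibitor and 5 each way for the interaction. Further list members named in the text were chosen after their values were seen. The comparison and the lists were chosen with earlier results of these data known. Promoters were read from a RefSeq table (GRCm38.p6), and the motif letters were chosen after the results. Among the genes named, Psph, Shmt1, Pkm, Ccnd1, Cp, Zfp36 and Apoh overlap other expressed genes, and with the strand setting not stated reads may be shared. Some genes that the naming rule takes are not reported here, though they remain in the fit and in the counts of each list.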

Additional observations from a re-analysis of the deposited data

Results flagged for a closer look

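Genotype effects that differed between cultures with and without inhibitor, by the limma interaction test, were found for 30 of 119 genes looked at, against 0.816% of all tested genes; the 119 include genes named for a large interaction or a large change without inhibitor, so the shares are not comparable. A higher effect under inhibitor was found for the immediate early and feedback genes Atf3 (1.22), Fosb (1.22), Egr1 (1.19), Jun (0.93), Fos (0.89), Btg2 (0.85), Ier2 (0.54), Csrnp1 (0.46), Cyr61 (0.45), Dusp6 (0.39) and Ier3 (0.36), all as differences of log2(FPKM + 1) differences. Most of the Fosb value lies in the cultures without inhibitor, where it averaged 1.23 FPKM with KO cells and 4.11 FPKM with WT cells; it was below 0.2 FPKM in every inhibitor library. Higher effects were also found for Il11 (0.96), Sprr1a (0.91), Cyp2d26 (0.67), Ptprn (0.62), Dqx1 (0.60), Slc38a3 (0.53), Nfkbie (0.49), Hpx (0.33) and Ahcy (0.29). Lower effects under inhibitor were found for Ifi207 (-0.94), Mmp13 (-0.82), Lmcd1 (-0.70), Adcy9 (-0.68), Ccnb1 (-0.68), Ccl2 (-0.66), Ttr (-0.64), Pmepa1 (-0.40), Add2 (-0.26) and C3 (-0.21). Of these, Cyp2d26, Add2, Lmcd1, Sprr1a, Il11, Mmp13, Adcy9, Ccnb1, Nfkbie, Ahcy, Slc38a3, Csrnp1, Ier3, Hpx and C3 were lost when single libraries were left out. Nfkbie was lost without 6 of 13 libraries, Lmcd1 without 9, and each of the rest without 10 or more, up to all 13 for Mmp13.

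In 8 of 120 genes 1 of the 4 KO+CXCR2i libraries stood apart from the other 3, where chance flags about 1 in 20. Gapdh was at 55.8 FPKM in replicate 3 and at 3.53 to 6.83 FPKM in the other KO+CXCR2i libraries; it was equally uneven in WT+CXCR2i libraries, at 3.91, 44.1 and 3.57 FPKM, and is unfit for scaling here. Replicate 3 was also highest for Serpinf2 (10.3 FPKM) and Add2 (9.66 FPKM) and lowest for C4b (50.7 FPKM). Replicate 1 was highest for Pmepa1 (19.7 FPKM) and Wfdc3 (1.66 FPKM) and lowest for Prox1 (8.92 FPKM). Replicate 4 was lowest for Foxa3 (7.72 FPKM), where it fell into the range of WT+CXCR2i libraries.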

How the results depend on the processing

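All 3 counts of called genes depended on how the spread between libraries was estimated. With KO against WT cells under inhibitor, 263 genes were called, and the count was 523 with library quality weights, 34 with a replicate block and 4 when a change had to exceed 1.2-fold; leaving out 1 library gave 123 to 221. Without inhibitor, 341 were called, and the count was 1384 with weights, 3 with the replicate block, 13 past 1.2-fold and 17 when only the 6 libraries compared were fitted. Leaving out 1 library gave 157 to 398. WT replicate 1 without inhibitor stood apart, with a weight of 0.2 against 0.635 and 5.45 for WT replicates 2 and 3. Its mitochondrial share was 4.57%, against 3.49% and 3.66%. Leaving it out gave the highest counts, 398 here and 120 for the interaction. For the interaction, 93 were called, and the count was 623 with weights, 25 with the replicate block, 7 past 1.2-fold, 41 when only the 13 libraries concerned were fitted and 55 with no filter on low values; leaving out 1 library gave 31 to 120. The remaining settings (pseudocount 0.1, mean of 5 FPKM, quantile normalization, rescaling without mitochondrial genes and the top 50, voom on recovered fragments) kept each count within 1.5 times. Rescaling changed the share called higher to 43.8% without inhibitor, against 55.1%, and to 77.3% for the interaction, against 65.6%; with inhibitor it was 73.6%, against 71.9%. The cause of these shifts was not tested.

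Replicate numbers did not pair the libraries: deviations of same-numbered libraries correlated at -0.0987, 0.13 and -0.0968 with inhibitor, and 1 of 6 libraries correlated best with its own number (2 of 6 without inhibitor). The block also leaves out KO+CXCR2i replicate 4, so its lower counts come with fewer libraries and fewer degrees of freedom. Of 99 called genes named or listed, 0 changed sign under these settings, 38 passed under every setting except the block and the 1.2-fold threshold, and 20 passed under the block. Precision is limited by 3 and 4 libraries a group and by transcripts below about 5 FPKM; a pseudocount of 0.1 FPKM ended 32 of the 99 calls.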
